A study of Mus musculus with 12 samples.

Results

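RNA-seq libraries labelled Tet2+/-;Ins2Akita/+ (here the double mutant, replicates 1 to 3) were compared with libraries labelled Ins2Akita/+ (here Akita, replicates 1 and 2), to describe what differed with the Tet2 allele when both groups carried the Akita allele of insulin 2. These 5 libraries were chosen by their genotype labels out of 12 labelled samples, of which 11 have a column of counts. The other 6 libraries, 3 of wild type (WT) and 3 labelled Tet2+/- (Tet2het), gave the same Tet2 contrast without Akita. All samples were total RNA of lineage-negative bone marrow cells of C57BL/6 mice. The labels name no Cre, promoter or agent, and age, sex and the kind of Tet2 lesion were not given in the labels. The Akita allele is shared by both groups, and blood glucose was not analysed here.

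Tet2 encodes a dioxygenase that oxidises 5-methylcytosine in DNA, a step towards demethylation, and loss of one of its copies is a common lesion in clonal blood disorders. The dominant Akita allele of Ins2 encodes a misfolded insulin that injures pancreatic beta cells, so that carriers have high blood glucose. Lineage-negative marrow is the cell fraction that remains after mature blood cells have been depleted by their surface markers. It is enriched for stem cells and progenitors, from which the myeloid, lymphoid and erythroid branches arise.

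Total counts were 16795242 and 19722471 for Akita 1 and 2 and 20642121, 22600405 and 17138242 for double mutant 1 to 3. Levels are given as CPM, counts scaled to a common library size with TMM factors, and 3 counts correspond to 0.144 to 0.190 CPM in these libraries. Mature markers were present in the lineage-negative fraction: over the 5 libraries Ly6g, of neutrophils, lay between 9.22 and 112 CPM and Cd3e, of T cells, between 3.28 and 10.3 CPM. Double mutant 3 stood apart. Mitochondrial transcripts took 9.76% of its counts and 1.45% to 1.94% in the other 4 libraries, and the SD of its log2 difference from each of those 4 over genes was 0.982 to 1.13, against 0.517 between the Akita libraries and 0.504 between double mutant 1 and 2. WT 3 and Tet2het 3 had mitochondrial shares of 3.43% and 4.46%. Counts of calls, called genes and most lists are therefore given with all 11 libraries in the fit and again without the 3 libraries numbered 3; a single value comes from all libraries.

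Tet2 itself was at 131 and 107 CPM in Akita 1 and 2 and at 66.5, 108 and 34.2 CPM in double mutant 1, 2 and 3. The groups overlapped, since the library labelled double mutant 2 lay between the Akita libraries. The log2 difference was -0.78 (SE 0.47), with an adjusted p of 0.892 from edgeR's quasi-likelihood test, and -0.45 (adjusted p = 0.354) without the libraries numbered 3. In Tet2het, by contrast, Tet2 was at 19.0, 18.5 and 19.3 CPM, below the 91.2, 128 and 45.1 CPM of WT. The test of the difference between these Tet2 contrasts gave a log2 value of 1.44 (adjusted p = 1), and 2.1 (adjusted p = 0.0682) without the libraries numbered 3. Gene counts do not show which part of the gene was altered, so double mutant names the label throughout, and the Tet2 level does not set double mutant 2 apart from Akita.

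The tested genes numbered 15630 with all libraries. At an adjusted p under 0.05 (Benjamini-Hochberg, edgeR) 6 genes were called, 0.0384% of those tested, 3 higher and 3 lower in the double mutant (0.0192% each); an unadjusted p under 0.05 was reached by 1032 genes (6.6%). The 3 lower genes were Akap12, Chst3 and Fam129c. The 3 higher ones were the processed pseudogenes Atp6v0c-ps2, Pcna-ps2 and Gm9825. The median log2 difference of all tested genes was 0.01, a value that the scaling itself holds near 0.

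Akap12, which encodes a scaffold protein that anchors protein kinase A, was at 15.2 and 20.8 CPM in Akita 1 and 2 and at 2.26, 1.54 and 0.824 CPM in double mutant 1, 2 and 3. Its fall of 3.54 on the log2 scale (SE 0.41, adjusted p = 0.0327, edgeR) left every double mutant library below both Akita libraries. Akap12 (GRCm38 chromosome 10, 4266380 to 4359470, plus strand) was at 14.5, 16.3 and 12.1 CPM in WT and at 19.1, 22.3 and 13.7 CPM in Tet2het, so those libraries overlapped with each other and lay near the Akita level.

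Chst3 encodes a sulfotransferase that adds sulfate to chondroitin and lies on chromosome 10, 60181532 to 60219260, minus strand. Its level was 13.6 and 18.2 CPM in Akita against 1.90, 0.547 and 1.46 CPM in the double mutant, with no overlap. The log2 difference was -3.61 (SE 0.44, adjusted p = 0.0413, edgeR). WT libraries held 18, 14.1 and 12.3 CPM of Chst3 and Tet2het libraries 17.0, 15.3 and 14.7 CPM. The first 250 bases before the annotated start of Chst3 are shown because they carried a match to the palindrome bound by the B-lineage factor EBF. In a search of B-lineage and neutrophil factor motifs it matched 0.904% of all promoters. Of 144 named genes with a promoter 2 matched, Chst3 and Foxo1. Binding of EBF and its part in the Chst3 level were not tested. The stretch is chr10:60219261-60219510 (RefSeq, GRCm38.p6), read 5′ to 3′ on the minus strand, with the match in capitals.
Chst3 promoter: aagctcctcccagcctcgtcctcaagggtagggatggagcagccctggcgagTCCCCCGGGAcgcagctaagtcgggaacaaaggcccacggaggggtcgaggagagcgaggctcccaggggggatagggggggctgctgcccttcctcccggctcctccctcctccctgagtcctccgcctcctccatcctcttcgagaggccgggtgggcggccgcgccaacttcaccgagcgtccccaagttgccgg

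Fam129c, also known as Niban3 and found in B cells, lies on chromosome 8, 71597648 to 71607936, plus strand. Akita 1 and 2 had 20.0 and 24.8 CPM of Fam129c, and double mutant 1, 2 and 3 had 5.11, 4.57 and 4.25 CPM. The fall was 2.27 on the log2 scale (SE 0.30, adjusted p = 0.0475, edgeR), and the double mutant libraries lay close together. WT held 26.2, 22.7 and 31.1 CPM and Tet2het 24.7, 48.2 and 34.1 CPM of this gene.

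The 3 higher calls were intronless copies of other genes. Atp6v0c-ps2, a copy of a subunit gene of the proton pump V-ATPase, had 0.121 and 0.528 CPM in Akita against 27.5, 37.4 and 41.5 CPM in the double mutant (6.69 on the log2 scale, SE 0.59, adjusted p = 0.00962). Pcna-ps2, a copy of the gene of the DNA polymerase clamp PCNA, had 0.363 and 0.288 CPM in Akita against 25.2, 26.4 and 51.9 CPM in the double mutant (6.71, SE 0.77, adjusted p = 0.0327). Gm9825 had no count in either Akita library and 12.5, 11.3 and 24.7 CPM in the double mutant (adjusted p = 0.0438), at least 99.4-fold higher when Akita is set to 3 counts per library. In each case all double mutant libraries lay far above Akita.

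These copies differed with the Tet2 label without Akita as well. Atp6v0c-ps2 was at 27.2, 49.2 and 29.5 CPM in Tet2het and at 0.101, 0.0996 and 0.0605 CPM in WT, and Pcna-ps2 at 26.4, 32.4 and 94.0 CPM against 0.353, 0.249 and 0.363 CPM. The test of the difference between the contrasts with and without Akita gave -1.85 for Atp6v0c-ps2 (SE 0.76, adjusted p = 1) and -0.58 for Pcna-ps2 (SE 0.90, adjusted p = 1), so neither passed. Both pseudogenes were high in double mutant 2, the library whose Tet2 level lay within the Akita range. Atp6v0c-ps2 lies on chromosome 6 (37806086 to 37806550, plus strand), Gm9825 on chromosome 6 (7982541 to 7983383, minus strand) and Pcna-ps2 on chromosome 19 (9283380 to 9284160, plus strand).

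The parent genes did not show differences of that size. Pcna was at 301 and 314 CPM in Akita and at 282, 270 and 252 CPM in the double mutant, and Atp6v0c at 389 and 354 against 413, 474 and 246 CPM. Over 781 aligned bases Pcna-ps2 had 6 mismatches to the Pcna coding sequence (99.23% identity), and over 465 bases Atp6v0c-ps2 had 1 mismatch to that of Atp6v0c (99.78%). The assignment of reads between copies so alike is uncertain, since the authors' counting program is not named in the labels. Counted from base 1 of the coding sequence, with the base of the parent first, the differences were A144G, A177C, G424A, A586G, G618T and G699A for Pcna-ps2 and T111C for Atp6v0c-ps2. Stretches of 90 bases that hold A144G and A177C, and T111C, are given to show what a read must cover to be told apart, with the differing bases in capitals (GENCODE M21, GRCm38).
Pcna coding bases 88 to 177: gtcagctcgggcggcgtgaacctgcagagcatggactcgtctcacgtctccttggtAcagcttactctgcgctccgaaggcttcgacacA
Pcna-ps2 bases 87 to 176: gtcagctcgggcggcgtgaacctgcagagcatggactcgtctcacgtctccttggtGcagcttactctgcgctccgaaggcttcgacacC
Atp6v0c coding bases 22 to 111: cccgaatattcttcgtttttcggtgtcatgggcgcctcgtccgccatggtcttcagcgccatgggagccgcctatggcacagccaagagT
Atp6v0c-ps2 bases 22 to 111: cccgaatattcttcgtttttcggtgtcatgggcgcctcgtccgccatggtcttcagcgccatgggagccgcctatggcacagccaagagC

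Another 4 features known from these data to follow the Tet2 label were also higher in all 3 double mutant libraries than in either Akita library, without passing the test with all libraries. Rps2-ps10, a ribosomal protein pseudogene, was at 0.846 and 0.384 CPM in Akita and at 12.5, 8.90 and 35.4 CPM in the double mutant (adjusted p = 0.188, and 0.0156 without the libraries numbered 3). Gm14292 had 2 counts over both Akita libraries and 144 over the double mutant, a ratio of 48.2 (95% counting interval 13.1 to 402). Eif3j2, a copy of a translation initiation factor subunit, was at 0.181 and 0.0480 against 9.22, 1.19 and 15.9 CPM, and Gbp2b, an interferon-induced GTPase, at 0 and 0 against 4.21, 0.398 and 4.50 CPM. Double mutant 2 was the lowest of its group for both of the latter. Since this list was chosen on these samples, its common direction is not independent evidence.

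**Figure D1:**
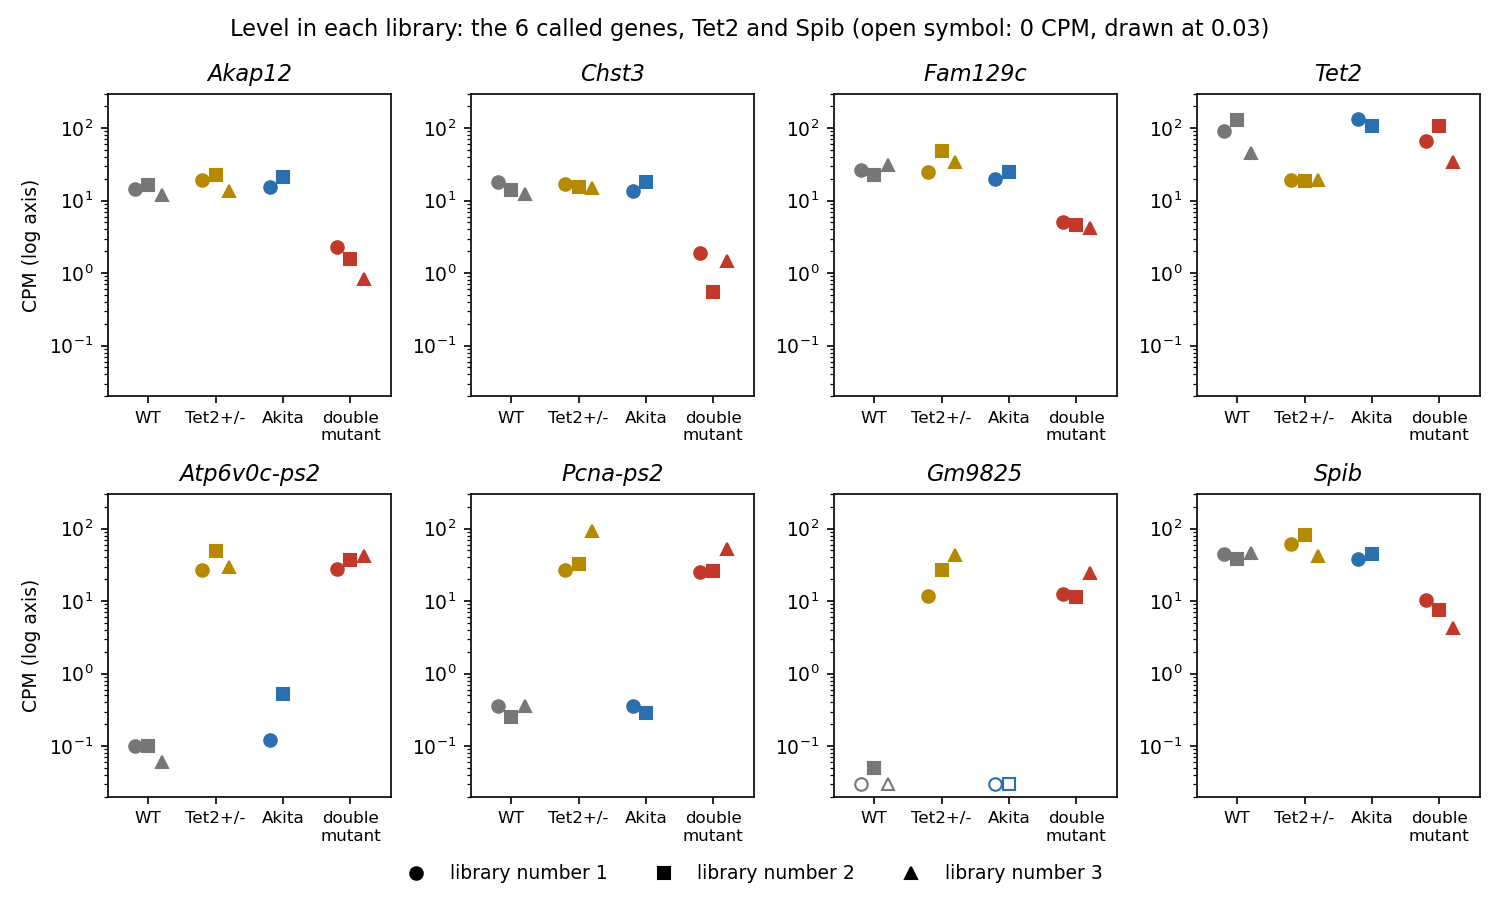
Levels in CPM (log axis; an open symbol marks a library at 0) of the 6 called genes, Tet2 and Spib in the 11 libraries of 4 groups, with the symbol giving the library number. Akap12, Chst3 and Fam129c are low in the 3 double mutant libraries alone, the pseudogenes are high in both groups with the Tet2 label, and Tet2 is lowest in Tet2het (18.5 to 19.3 CPM) and overlaps between Akita and the double mutant.

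The 6 calls were not stable to the choice of libraries. Leaving out Akita 1 or double mutant 2 ended all 6 (0 higher and 0 lower in edgeR). With double mutant 1 and 2 only and all other libraries kept, 1 higher gene and no lower gene was called, and likewise without Akita 2 or without any single WT library; Atp6v0c-ps2 remained called in 9 of the 11 fits that left out 1 library. The log2 differences moved less: over 24 alternatives Akap12 ranged from -3.91 to -3.23, Chst3 from -4.00 to -3.24 and Fam129c from -2.39 to -2.11, while their adjusted p ranged up to 0.671, 0.671 and 0.761.

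Without the 3 libraries numbered 3, when double mutant 1 and 2 face Akita 1 and 2 and the spread comes from 8 libraries, 15092 genes were tested and 436 were called (2.89%), 245 higher (1.62%) and 191 lower (1.27%). Of these, 194 were higher and 152 lower by at least 2-fold, and the 6 genes named above were all among them. Double mutant 3, which was not in that fit, lay beyond both Akita libraries on the same side for 357 of the 436 genes (81.9%). The same 2 Akita libraries served to choose these genes, so this share is not independent evidence. Among all genes with double mutant 1 and 2 above both Akita libraries (27.5% of those tested) the share was 60.5%, and among those with both below (29.4%) it was 67.9%. An unadjusted p under 0.05 was reached by 3083 genes (20.4%), and 47.5% of log2 differences lay above 0, against 51.2% with all libraries. DESeq2 with all libraries called 125 higher (0.801%) and 64 lower (0.41%) genes, of which 117 were also among the 436. With the 4 libraries numbered 1 and 2 of these 2 groups alone in the fit, 23 higher and 21 lower genes were called. Calls named in what follows come from the fit of 8 libraries unless stated, and each list is described by counts and its median log2 difference.

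B-lineage genes were lower as a group. Of 24 genes, 23 were tested, 21 lay below 0 and their median log2 difference was -2.15 against 0.01 for all genes. In 20 of them the 3 double mutant libraries were all below both Akita libraries, as were 19.9% of all tested genes. With all libraries none was called by edgeR (17 were lower at an unadjusted p under 0.05) or limma voom, and DESeq2 called 11 lower. When a term for the library number (the replicate block) was added to the edgeR fit of all libraries, 2 were called lower. Without the libraries numbered 3 the median was -2.07 and 13 were called lower (1.27% of all genes), each with double mutant 3 below Akita as well. The summed level of the list was 385 and 454 CPM in Akita against 172, 126 and 226 CPM in the double mutant. It was 402 to 488 CPM in WT and 428 to 742 CPM in Tet2het, where the median log2 difference from WT was 0.27. In bulk RNA, fewer cells of a type and less RNA per cell cannot be told apart.

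The transcription factors that set B-cell identity led the list. Spib, an ETS factor of B cells and plasmacytoid dendritic cells, was at 37.7 and 43.9 CPM in Akita and at 10.4, 7.46 and 4.25 CPM in the double mutant (-2.46 on the log2 scale, SE 0.37, adjusted p = 0.119; -2.19 and 0.00782 without the libraries numbered 3, edgeR). Pax5, which commits progenitors to the B lineage, was at 25.0 and 29.0 against 3.11, 0.497 and 2.47 CPM (-3.74, adjusted p = 0.122; -3.90 and 0.0235). Ebf1, which acts upstream of Pax5, was at 12.3 and 14.7 against 2.56, 1.09 and 1.97 CPM (-2.85, adjusted p = 0.122; -2.88 and 0.0120). For these 3 factors all double mutant libraries lay under every Akita library, and double mutant 2 held the least Pax5 and Ebf1.

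Genes that act downstream in early B cells were low too. Rag1, part of the enzyme that rearranges antigen receptor genes, was at 5.38 and 13.5 CPM in Akita and at 0.902, 0.0497 and 0.190 CPM in the double mutant, where 2 of 3 libraries held 1 and 3 counts. Blk, a kinase of the B-cell receptor, was at 7.62 and 11 against 2.11, 1.04 and 1.84 CPM (-2.56, adjusted p = 0.0310 without the libraries numbered 3). Further called members were Bach2, Blnk, Cd22, Fcrla, Igll1, Lef1 and Ms4a1, with log2 differences from -2.64 to -1.84.

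Not all members shared this size. Cd79a, a signalling chain of the B-cell receptor, was at 42.2 and 36.6 CPM in Akita and at 31.9, 28.5 and 36.3 CPM in the double mutant (-0.29, SE 0.26, adjusted p = 0.946). Its partner Cd79b was at 36.5 and 33.8 against 16.0, 15.3 and 19.4 CPM (-1.06, adjusted p = 0.575). Dntt, which adds bases at receptor joints in early lymphoid progenitors, overlapped between the groups, at 14.3 and 12.1 against 9.72, 13.5 and 62.4 CPM, with double mutant 3 highest. Igkc, the kappa light chain constant gene of the immunoglobulin list, was higher rather than lower in the double mutant, at 5296, 5487 and 8345 CPM against 4582 and 2040 CPM (0.95, adjusted p = 0.753), while Ighd, the IgD heavy chain, was called lower without the libraries numbered 3 (7.86 and 9.89 against 2, 0.895 and 5.51 CPM, -2.61, adjusted p = 0.0156).

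Dendritic-cell genes were lower as a group. Of 17 tested members 16 lay below 0, with a median of -1.14 (-1.37 without the libraries numbered 3), and 9 were called lower in the latter fit (1.27% of all genes). With all libraries edgeR called none (10 lower at an unadjusted p under 0.05, which 6.6% of all genes reached in either direction), limma voom none and DESeq2 3. The summed level was 838 and 835 CPM in Akita against 478, 438 and 354 CPM in the double mutant. Siglech, a lectin of plasmacytoid dendritic cells, was at 49.3 and 57.0 against 21.9, 19.2 and 12.1 CPM (-1.58, adjusted p = 0.406; -1.37 and 0.0236). Clec9a, a receptor for dead cells on conventional dendritic cells, was at 6.41 and 5.52 against 1.85, 1.59 and 0.761 CPM (-2.08, adjusted p = 0.234; -1.79 and 0.0194). Irf8, which directs progenitors to dendritic cells and monocytes and away from granulocytes, was at 171 and 142 against 88.9, 87.6 and 62.3 CPM (-0.98, adjusted p = 0.602; -0.83 and 0.0329). Groups did not overlap for these 3 genes, and the other called members were Ccr9, Ly6d, Pacsin1, Runx2, Tcf4 and Zbtb46.

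Genes of MHC class II, the complex that presents peptides to helper T cells, shared the direction in part. Of 12 members 11 lay below 0 (median -0.48, and -0.97 without the libraries numbered 3). H2-Aa, H2-Ab1, H2-Eb1 and Cd74 were called lower in the latter fit (1.27% of all genes). With all libraries edgeR, limma voom and DESeq2 called none. H2-Aa, an alpha chain, was at 153 and 149 CPM in Akita and at 62.6, 63.0 and 31.3 CPM in the double mutant (-1.53, SE 0.62, adjusted p = 0.700; -1.27 and 0.00782). H2-Ab1, its beta chain, was at 122 and 122 against 55.9, 54.4 and 41.6 CPM. The replicates of each group were close together for both chains, apart from double mutant 3 for H2-Aa. H2-Aa was also lower in Tet2het 3 and WT 3, at 55.5 and 78.1 CPM, than in the other WT and Tet2het libraries, at 191 to 266 CPM.

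T- and NK-cell genes and regulators of early lymphoid cells were lower as well. Of 20 T and NK members 18 lay below 0 (median -1.23, and -1.22 without the libraries numbered 3). In 15 the groups did not overlap (19.9% of all genes in that direction), and 12 were at an unadjusted p under 0.05 (6.6% of all genes in either direction). With all libraries edgeR and limma voom called none and DESeq2 1. The fit without the libraries numbered 3 called 6 lower (1.27% of all genes): Bcl11b, Cd3d, Cd3e, Il2rb, Tcf7 and Trac. Tcf7, a factor of early T cells, was at 54.1 and 82.6 CPM in Akita and at 25.6, 16.1 and 10.7 CPM in the double mutant (-1.97, adjusted p = 0.484; -1.71 and 0.0310). Among 20 lymphoid priming regulators 16 lay below 0 (median -0.41) and 7 were called lower without the libraries numbered 3, Rag1 and Ccr9 among them. Foxo1, a forkhead factor held in check by insulin signalling and needed for early B cells, was at 80.4 and 108 against 38.6, 24.8 and 10.4 CPM (-1.94, adjusted p = 0.724; -1.57 and 0.0184). Tcf7 and Foxo1 were also low in the libraries numbered 3 without Akita: Tcf7 was at 22.6 CPM in Tet2het 3 and 24.9 CPM in WT 3, against 59.4 to 90.1 CPM in the other WT and Tet2het libraries, and Foxo1 at 18.9 and 17.7 CPM against 87.2 to 104 CPM. The sum of the T and NK list was likewise 285 and 313 CPM there, against 731 to 979 CPM, so the low double mutant 3 values went with the library number as well as with the genotype. Ikzf3, a zinc finger factor of maturing lymphocytes, was at 20.7 and 26.1 against 12.4, 8.5 and 10.1 CPM (-1.18, adjusted p = 0.210; -1.17 and 0.0326). Sesn3, a FOXO target, was lower in the same way (47.9 and 49.3 against 27.0, 19.9 and 11.5 CPM), and of 21 tested genes of insulin signalling and FOXO targets Foxo1 and Sesn3 were those called.

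Genes of maturing neutrophils were higher in every double mutant library. All 30 members were tested, all 30 had log2 differences above 0 and no overlap between the groups, as had 16.6% of all genes in that direction, and their median was 1.67. With all libraries edgeR called none (13 at an unadjusted p under 0.05), limma voom none and DESeq2 7. Without the libraries numbered 3 the median was 1.6 and 9 were called higher (1.62% of all genes). Summed levels were 37589 and 19813 CPM in Akita against 56925, 85826 and 73549 CPM in the double mutant. The gap between the Akita libraries was wide, with Akita 1 nearer to double mutant 1 in proportion than to Akita 2, and without Akita 2 the list median was 1.20. Across the other groups the sum was 27404 to 35849 CPM in WT and Tet2het 1 and 2, but 2822 in WT 3 and 3732 in Tet2het 3, so a library numbered 3 is low there and high in the double mutant.

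S100a9, a calcium-binding alarmin that neutrophils hold in quantity, was at 8164 and 4191 CPM in Akita and at 11908, 21226 and 18290 CPM in the double mutant (1.47, SE 1.04, adjusted p = 0.927). Ltf, the secondary-granule protein lactoferrin, was at 4089 and 1820 against 5848, 8470 and 8418 CPM, and Mmp9, a gelatinase of tertiary granules, at 323 and 113 against 565, 1259 and 1344 CPM. All double mutant libraries lay above Akita for these genes, with an SE over 0.6 in the fit that pools the spread of 4 groups. Retnlg, a resistin-like protein of neutrophils, was at 389 and 233 against 730, 1490 and 1719 CPM (2.08, adjusted p = 0.621; 1.84 and 0.0414 without the libraries numbered 3). Cxcr2, the receptor by which neutrophils leave the marrow, was at 29.8 and 12.8 against 44.4, 114 and 201 CPM (2.49, adjusted p = 0.341; 1.90 and 0.0996).

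The stefin A genes, which encode inhibitors of cysteine proteases and form a cluster of near-identical copies on chromosome 16, had the highest log2 differences of the 30 genes. Stfa2 was at 0.181 and 0.192 CPM in Akita, from 3 and 4 counts, and at 7.82, 15.4 and 93.2 CPM in the double mutant (7.65, SE 1.57, adjusted p = 0.231; 5.91 and 0.0102). Stfa2l1 was at 5.08 and 4.95 against 32.8, 70.9 and 84.5 CPM, and Stfa3 at 0.605 and 0.672 against 5.11, 11.5 and 89.6 CPM. BC100530, another stefin of the cluster, was at 1.03 and 0.768 against 22.4, 35.3 and 237 CPM (6.77, adjusted p = 0.225; 5.01 and 0.0124). Double mutant 3 was the highest library for all 4, and reads may have been split among these copies. In WT and Tet2het Stfa2 lay between 0 and 0.655 CPM.

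Genes of the primary granules, made earlier in neutrophil development, differed less, and their direction depended on the libraries numbered 3. Of 14 tested members 9 lay above 0 and 5 below, the median was 0.16 and none was called by edgeR, by DESeq2 or by limma voom (0 at an unadjusted p under 0.05 in edgeR, and 6 without the libraries numbered 3, where none was called either). Mpo, myeloperoxidase, was at 7356 and 5676 CPM in Akita and at 7394, 7544 and 4546 CPM in the double mutant (-0.01, SE 0.91, adjusted p = 1). Elane, neutrophil elastase, was at 1808 and 1544 against 1995, 2171 and 923 CPM. Both overlapped between the groups, with double mutant 3 lowest. Without the libraries numbered 3 the median of the list was 0.37 and 13 of the 14 lay above 0. In 10 of the 14 double mutant 1 and 2 were both above both Akita libraries, as were 27.5% of all genes. The summed level was 9949 CPM in double mutant 3 against 16203 and 18377 CPM in double mutant 1 and 2. It was also low in WT 3 and Tet2het 3, at 3059 and 1823 CPM, against 11080 to 15653 CPM in the other WT and Tet2het libraries.

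**Figure D2:**
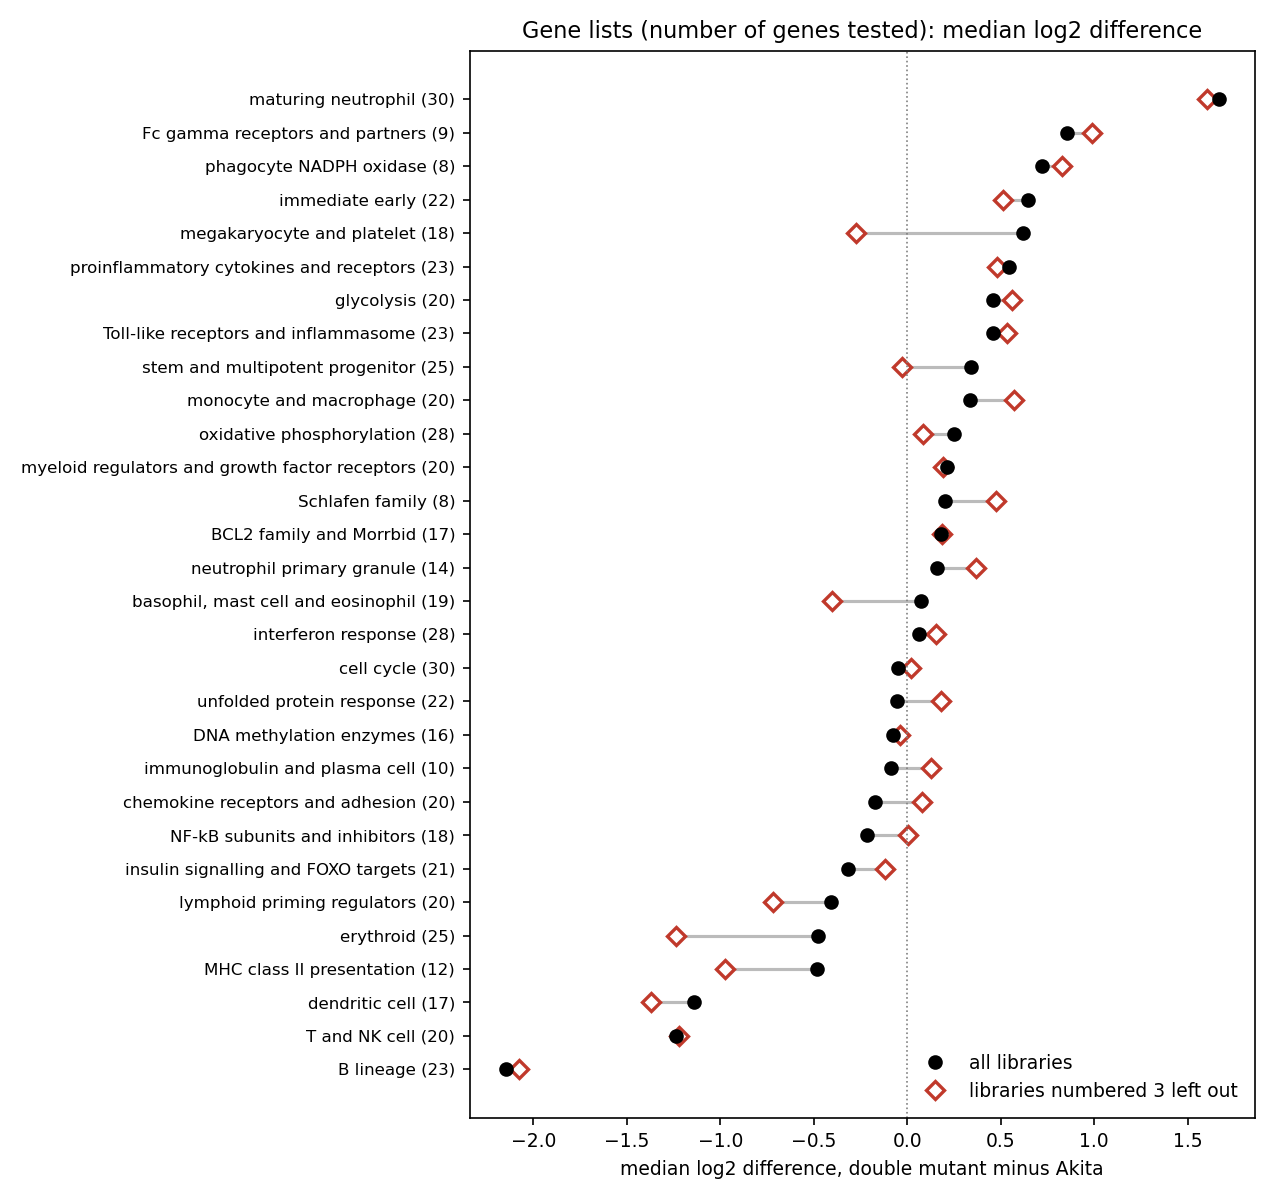
Median log2 difference, double mutant minus Akita, of 30 gene lists with all libraries (filled circles) and without the libraries numbered 3 (open diamonds). B-lineage, T- and NK-cell and dendritic-cell lists lie lowest in the fit of all libraries (-2.15, -1.23 and -1.14) and maturing neutrophil genes highest (1.67), while the basophil list changes sign.

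Genes by which phagocytes sense and respond were partly higher as well. Of 9 tested Fc gamma receptors and partners 8 lay above 0 (median 0.85). Fcgr4, Pirb and Fcer1g were called higher without the libraries numbered 3 (1.62% of all genes). With all libraries edgeR and limma voom called none of the list, DESeq2 1 and edgeR with the replicate block 1. Fcgr4, an activating IgG receptor, was at 13.3 and 6.53 CPM in Akita and at 69.6, 44.0 and 32.6 CPM in the double mutant (2.30, SE 0.60, adjusted p = 0.377; 2.53 and 0.0169). All 8 genes of the phagocyte NADPH oxidase, which makes superoxide, lay above 0 (median 0.72) and none was called by edgeR with or without the libraries numbered 3 (0 and 7 at an unadjusted p under 0.05), by limma voom or by DESeq2. The level of Cybb, its catalytic subunit, was 666 and 350 against 1021, 1343 and 764 CPM. Of 20 monocyte and macrophage genes 15 lay above 0 (median 0.34). Ms4a6d and Clec4a1 were called higher without the libraries numbered 3 (1.62% of all genes). For Ms4a6d double mutant 3 did not lie above both Akita libraries. With all libraries edgeR, limma voom and DESeq2 called none of these genes.

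Among proinflammatory cytokines and receptors 17 of 23 lay above 0 (median 0.55). Without the libraries numbered 3, Tnf, Il1b, Cxcl10, Ccl4, Ccl2, Il1rn and Il1r2 were called higher (1.62% of all genes). Il6st, the shared signalling chain of IL-6 family receptors, was called lower there (1.27% of all genes). With all libraries edgeR and limma voom called none of the list and DESeq2 1 higher. Tnf, a central inflammatory cytokine, was at 52.3 and 38.2 CPM in Akita and at 91.4, 120 and 150 CPM in the double mutant, with no overlap (1.41, SE 0.28, adjusted p = 0.210; 1.23 and 0.0214). Il1b was at 34.9 and 24.2 against 53.4, 75.8 and 28.3 CPM, so that double mutant 3 lay within the Akita range (0.83, adjusted p = 0.851; 1.13 and 0.0378). Il6 was at 61.5 and 61.9 against 12.3, 33.5 and 73.5 CPM, lower in double mutant 1 and 2 and higher in 3 (-0.64, adjusted p = 0.950), and Il1r1 overlapped at 6.59 and 12.5 against 10.6, 9.55 and 21.9 CPM.

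Nfkbiz, a nuclear regulator of NF-kB that is induced by IL-1 and Toll-like receptor signals, was at 255 and 245 CPM in Akita and at 499, 654 and 542 CPM in the double mutant. Its log2 difference was 1.18 (SE 0.21, adjusted p = 0.173, edgeR), and 1.21 (adjusted p = 0.0174) without the libraries numbered 3. Its replicates were close in both groups. In the latter fit Nfkbiz was the single call of 18 NF-kB genes (1.62% of all genes were called higher). The list median was -0.21 with all libraries and 0.002 without the libraries numbered 3, where 9 lay above and 9 below 0. With all libraries edgeR and limma voom called none of the NF-kB genes and DESeq2 1. Of 23 Toll-like receptor and inflammasome genes 19 lay above 0 (median 0.46). The adaptor Myd88 and the receptor Tlr2 were called higher without the libraries numbered 3 (1.62% of all genes). With all libraries edgeR and limma voom called none of this list and DESeq2 1. Myd88 was at 95.7 and 80.1 against 149, 191 and 134 CPM, whereas Tlr2, at 95.7 and 63.9 against 168, 263 and 68.7 CPM, again had double mutant 3 within the Akita range.

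Immediate early genes, which are induced within minutes by growth factors and by stress, lay above 0 for 20 of 22 members (median 0.64). Jun was at 715 and 713 CPM in Akita and at 1202, 1827 and 2689 CPM in the double mutant (1.42, SE 0.49, adjusted p = 0.591; 1.09 and 0.0593). Double mutant 3 was far the highest for Fos, at 1145 CPM against 268 and 352 CPM in double mutant 1 and 2 and 204 and 163 CPM in Akita. Klf2 and Fosl1 were called higher (1.62% of all genes) and the orphan nuclear receptor Nr4a2 lower (1.27%) without the libraries numbered 3. With all libraries edgeR and limma voom called none of the list and DESeq2 1 higher. Such genes also respond to handling of cells, whose part in the result was not tested.

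Genes of glycolysis lay above 0 for 18 of 20 members, with a median of 0.46 and of 0.56 without the libraries numbered 3. Slc16a3, a lactate exporter, was called in the latter fit, with 54.7 and 37.8 CPM in Akita against 107, 138 and 97.3 CPM in the double mutant (1.41, adjusted p = 0.0190). Ldha, which makes lactate from pyruvate, was at 403 and 335 against 564, 789 and 853 CPM (0.99, SE 0.25, adjusted p = 0.350; 0.87 and 0.0522). All 28 nuclear genes of oxidative phosphorylation lay above 0 with a median of 0.25, which was 0.09 without the libraries numbered 3. None was called by edgeR in either fit (0 and 1 at an unadjusted p under 0.05), limma voom or DESeq2. All 28 also lay above 0 in Tet2het minus WT with all libraries (median 0.26). Their summed level was highest in Tet2het 3 and WT 3, at 8232 and 6811 CPM, followed by 5851 CPM in double mutant 3.

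**Figure D3:**
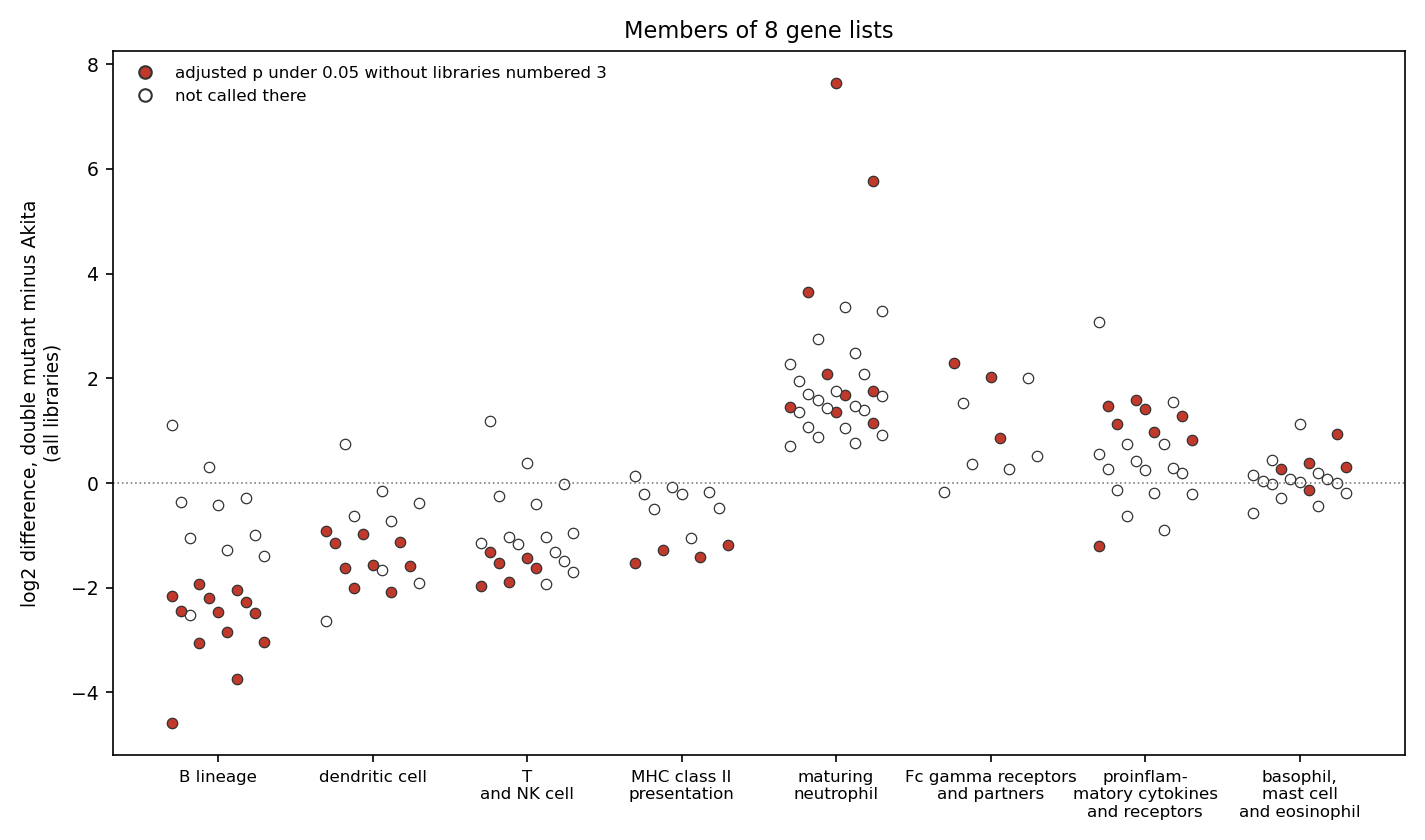
Log2 difference, double mutant minus Akita with all libraries, of each tested member of 8 lists, with red points for genes at an adjusted p under 0.05 without the libraries numbered 3. The 30 maturing neutrophil genes all lie above 0 and 21 of 23 B-lineage genes below, while the red basophil genes, which were called lower without those libraries, scatter around 0 here.

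Lists of other branches had no settled direction. Basophil and mast-cell genes had a median of 0.08 with all libraries and -0.40 without the libraries numbered 3. Mcpt8, Ms4a2, Gata2, Cpa3 and Prss34 were called lower in the latter fit (1.27% of all genes). The basophil protease gene Mcpt8 was at 532 and 469 CPM in Akita, at 141 and 192 CPM in double mutant 1 and 2 and at 1624 CPM in double mutant 3. For none of these 5 genes did double mutant 3 lie below Akita, so their call rests on double mutant 1 and 2. Erythroid genes had a median of -0.47 with 23 of 25 below 0, and of -1.24 with 24 of 25 below 0 without the libraries numbered 3. The median became 0.47 without Akita 2, the library with the highest sum (5374 CPM against 2148 CPM in Akita 1 and 3061, 1306 and 4690 CPM in the double mutant). Megakaryocyte and platelet genes changed from 0.62 to -0.27 without the libraries numbered 3. In all, the medians of 8 of 31 lists changed sign on leaving out those libraries; the B-lineage, dendritic, T and NK, MHC class II and maturing neutrophil lists were not among them.

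**Figure D4:**
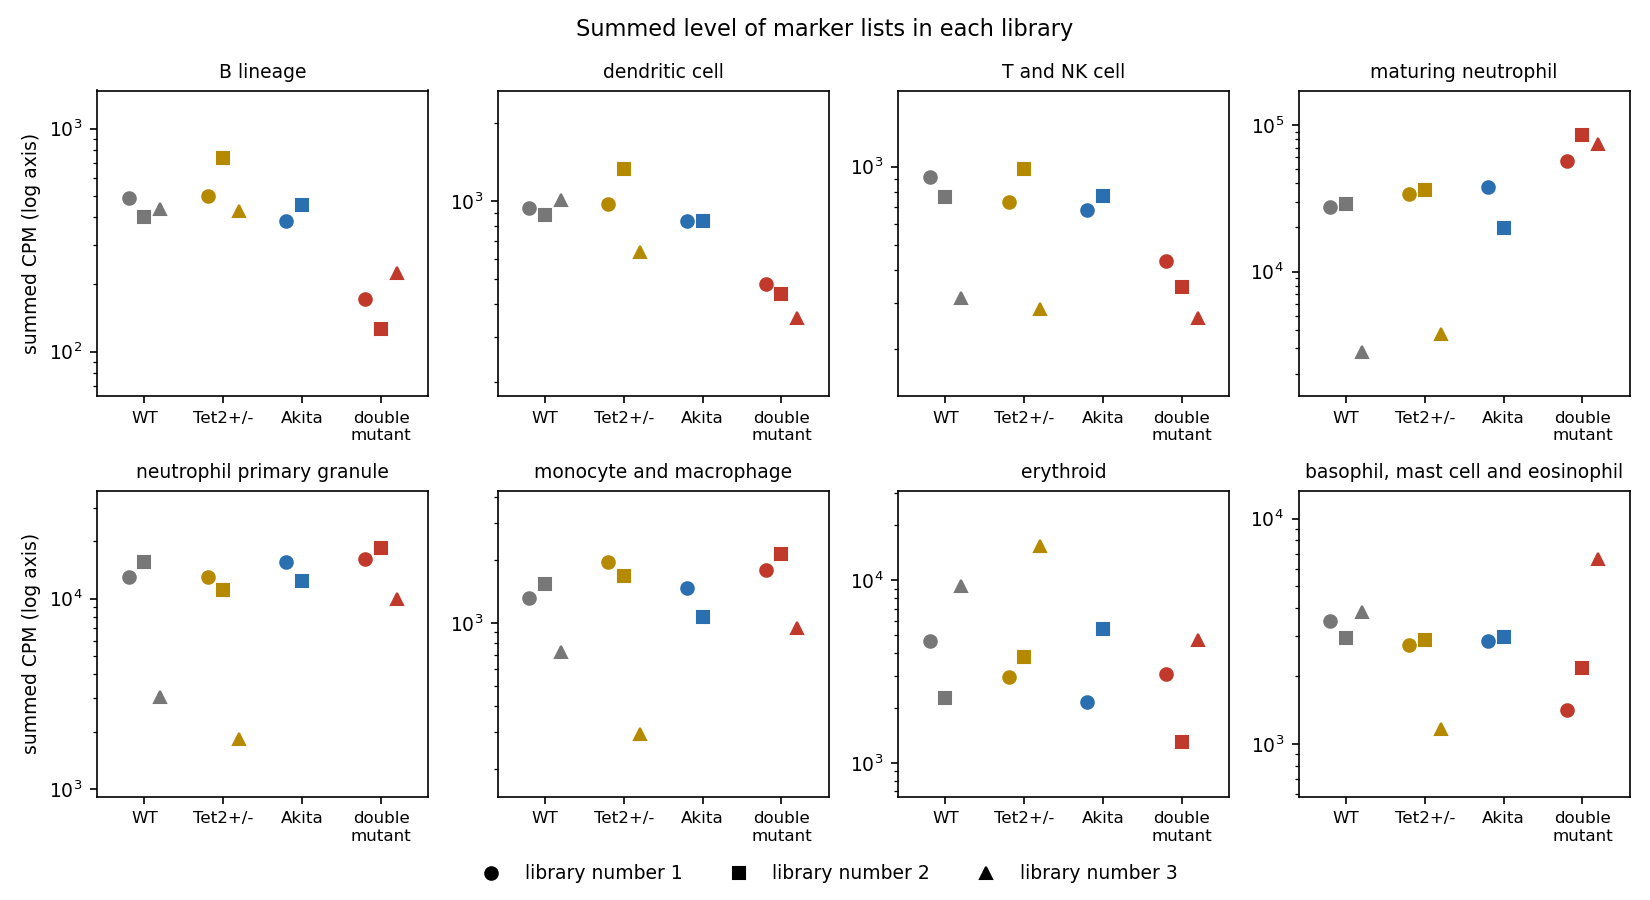
Summed CPM (log axis) of 8 marker lists in each of the 11 libraries, by group, with the symbol giving the library number. The B-lineage sum is 126 to 226 CPM in the double mutant and at least 385 CPM in each other library, and the maturing neutrophil sum is lowest in WT 3 and Tet2het 3.

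The marker sums thus moved together in double mutant 1 and 2, in which lymphoid and dendritic markers were low and late neutrophil markers high. Their part in the differences of single genes was not tested. In double mutant 3 the same held for B-lineage, dendritic and late neutrophil markers, beside a basophil sum of 6636 CPM against 1413 to 2972 CPM in the other 4 libraries.

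Enzymes that write, erase or read DNA methylation, among which Tet2 acts, lay near 0 as a group. Of 16 genes 6 lay above 0 and 10 below, the median was -0.08, and none was called by edgeR with or without the libraries numbered 3 (0 and 1 at an unadjusted p under 0.05), limma voom or DESeq2. Tet3 was at 127 and 138 CPM in Akita and at 115, 89.7 and 70.4 CPM in the double mutant (-0.53, SE 0.29, adjusted p = 0.839), and Tet1 overlapped, at 9.13 and 9.65 against 6.57, 7.16 and 14.1 CPM. Dnmt1, the maintenance methyltransferase, was at 334 and 315 against 312, 296 and 226 CPM (-0.22, SE 0.32). Stem and multipotent progenitor genes had a median of 0.34, and of -0.03 without the libraries numbered 3. Cell-cycle genes had medians of -0.05 and 0.02 and those of the unfolded protein response -0.06 and 0.18.

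Genes of survival control were mixed. Bcl2l11, which encodes the pro-death protein BIM, was at 178 and 210 CPM in Akita and at 181, 178 and 58.7 CPM in the double mutant (-0.48, SE 0.70, adjusted p = 0.962). Gm14005, the gene of the Bcl2l11-repressing long non-coding RNA Morrbid, was at 11 and 9.12 against 16.2, 19.9 and 8.43 CPM, so that double mutant 1 and 2 lay above and 3 below Akita (0.56, adjusted p = 0.965; 0.84 and 0.0548). Without the libraries numbered 3, 16 genes of this list were tested, with a median of 0.19. Bmf, another pro-death member, was called lower there (1.27% of all genes) and Pmaip1, which encodes NOXA, higher (1.62%). For Pmaip1 double mutant 3 did not lie above both Akita libraries. With all libraries edgeR, limma voom and DESeq2 called none of the list.

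Further genes were called without the libraries numbered 3 and were not in the lists above. Saa3, an acute-phase serum amyloid A protein, was at 0.605 and 0.720 CPM in Akita and at 15.6, 22.9 and 8.37 CPM in the double mutant, above Akita in every library (4.54, SE 1.11, adjusted p = 0.341; 4.84 and 0.00782). In WT and Tet2het Saa3 lay between 0.0483 and 1.52 CPM. The stretch from 250 to 51 bases before its start is shown because it holds a match to the core bound by C/EBP factors. Such matches were found in 18 of 144 named genes with a promoter, among them Spib and Il7r, which were lower. Cebpb, the gene of 1 of these factors, was called higher (49.1 and 53.2 against 90.2, 105 and 79.7 CPM). Its part in the Saa3 level was not tested. The stretch is chr7:46715727-46715926 (RefSeq, GRCm38.p6), 5′ to 3′ on the minus strand, with the match in capitals, which reads TTGCNNAA on the other strand.
Saa3 promoter: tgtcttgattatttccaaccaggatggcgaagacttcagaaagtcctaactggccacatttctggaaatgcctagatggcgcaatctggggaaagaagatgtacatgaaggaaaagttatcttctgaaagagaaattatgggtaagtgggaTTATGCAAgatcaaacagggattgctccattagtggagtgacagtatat

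The search covered 250 bases before to 50 after each start in RefSeq promoters, on both strands. The C/EBP letters TTGCNNAA occurred in 3547 of 32851 promoters (10.8%), in 9 of 28 maturing neutrophil genes (32.1%) and in 4 of 20 B-lineage genes (20%). The EBF letters, TCCC and GGGA separated by NN, occurred in 297 promoters (0.904%), in 1 B-lineage gene and in no neutrophil gene, and the PU.1 letters GAGGAAGT in 1052 promoters (3.2%), 4 neutrophil genes and 1 B-lineage gene. Genes can have several promoters, and a match describes letters only.

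Trpv1, a heat-gated ion channel, had no count in Akita and 5.31, 3.28 and 0.0634 CPM in the double mutant, at least 17.7-fold higher as a group, with double mutant 3 below 3 counts. Cdk18, a cyclin-dependent kinase, was at 21.3 and 21.7 CPM in Akita, at 69.3 and 72.8 CPM in double mutant 1 and 2 and at 8.94 CPM in double mutant 3, so the third library went the other way. Id1, an inhibitor of helix-loop-helix factors, was at 17.4 and 17.8 against 37.7, 45.3 and 51.2 CPM (1.35, adjusted p = 0.575; 1.24 and 0.0133), and Snai1, a zinc finger repressor, at 2.12 and 1.82 against 7.82, 8.30 and 7.86 CPM (2.02, adjusted p = 0.355; 2.03 and 0.0133). For Id1 and Snai1 no library of one group reached the other. Glipr2, Rhov, AA467197, Rab20, Zfp949 and Tdg-ps were also among the higher calls, Zfp949 with double mutant 3 below Akita. The pseudogene Tdg-ps was at 0.121 and 0.288 CPM in Akita and at 3.86, 5.32 and 0.380 CPM in the double mutant, from 6 counts in double mutant 3. It was higher with the Tet2 label without Akita as well, at 9.48, 5.04 and 6.72 CPM in Tet2het against 0.201 to 0.423 CPM in WT.

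On the lower side, Axin2, a feedback inhibitor and target of Wnt signalling, was at 12.6 and 14.9 CPM in Akita and at 3.61, 2.19 and 2.66 CPM in the double mutant (-2.28, SE 0.51, adjusted p = 0.309; -2.24 and 0.0120). Hs3st1, which like Chst3 encodes a sulfotransferase of matrix sugars, was at 12.9 and 15.8 against 3.01, 2.39 and 2.47 CPM (-2.45, adjusted p = 0.369; -2.41 and 0.00782). Mybpc2, a myosin-binding protein, was at 3.33 and 2.50 against 0.301, 0.249 and 0.254 CPM (-3.41, adjusted p = 0.173; -3.37 and 0.00845). All 3 had double mutant replicates close together and below both Akita libraries. Mybpc2 (chromosome 7, 44501699 to 44524656) lies beside Spib (44525993 to 44532071), both on the minus strand. Whether its counts were independent of Spib was not tested. Low levels were also seen in the libraries numbered 3 without Akita: Hs3st1 was at 3.67 CPM in Tet2het 3 and 4.78 CPM in WT 3 against 13.8 to 17 CPM in the other WT and Tet2het libraries, Axin2 at 4.83 and 3.87 against 9.24 to 13.3 CPM, and Mybpc2 at 2.32 and 0.907 against 2.72 to 6.53 CPM. Epha2, an ephrin receptor kinase, was at 49.8 and 53.5 against 21.8, 22.1 and 5.20 CPM. Upb1, St8sia1, Sh3pxd2a, Cnn3 and the overlapping pair Pakap and Akap2, whose reads cannot be told apart, were also called lower. Pakap was likewise low in Tet2het 3 and WT 3, at 3.24 and 2.72 CPM, against 17.2 to 26.8 CPM in the other WT and Tet2het libraries. Sh3pxd2a was at 6.28 and 10.3 CPM there, against 23.5 to 28.0 CPM.

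Whether the difference with the Tet2 label depended on the Akita allele was tested by the interaction of the 4 groups. With all libraries no gene was called by edgeR (537 genes, 3.44%, at an unadjusted p under 0.05) or by limma voom (511 genes, 3.27%), while DESeq2 called 60 (0.435%, with 718 genes, 4.6%, at an unadjusted p under 0.05). For the 3 called lower genes the interaction was -3.90 for Akap12 (adjusted p = 0.399), -3.69 for Chst3 (0.401) and -2.69 for Fam129c (0.399), since their Tet2het minus WT differences were 0.36, 0.08 and 0.42. Without the libraries numbered 3, edgeR called 7 genes (0.0464%), with 1937 genes (12.8%) at an unadjusted p under 0.05. Among the 7 were Akap12, Spib, Mybpc2 and H2-Aa with a lower and Cdk18 with a higher double mutant. With the replicate block added to that fit none was called.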

How the data were processed

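The authors deposited 1 table of raw whole-number counts. bcl2fastq, Trimmomatic 0.32, TopHat2 2.1.1 and GRCm38 are named per the submitters' processing notes. The counting program, its annotation and its use of strand (not given in the sources used here) leave overlapping, antisense and near-identical genes uncertain. Of 31060 identifiers, 30875 matched GENCODE M21 names once versions were dropped, and 25042 with versions. A column (1 in number) matched no sample label and was not used, and double mutant 4 was not analysed here. The labels do not say whether replicates are separate animals; p-values therefore reflect spread between these samples, which may be technical. The 5 libraries all differed beyond counting noise (chi-square per gene at least 27.4).

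Tests used edgeR 4.0.16 (R 4.3.3): filterByExpr, TMM, 1 fit of 4 groups, quasi-likelihood with robust=TRUE, Benjamini-Hochberg over all genes, tested on simulated data. SE is the log2 difference over the square root of F. DESeq2 1.42.0 and limma 3.58.1 voom were alternatives, as were other scaling factors and filters, the replicate block and leaving out libraries. Intervals and the level of 3 counts cover counting error only.

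The compared groups, gene lists and tests were chosen with earlier results of these data known. A rule chose most genes named: Tet2, Tet1, Tet3, Bcl2l11, Gm14005, Il6, Tnf, Il1b and Il1r1, then up to 15 called genes in each direction ranked by p (absolute log2 difference 1 or more, mean CPM 1 or more, no Gm or Rik symbols), topped up from the fit without the libraries numbered 3, then per list 4 members by p and 2 by mean, and every gene of a count up to 5. Other genes were named after their values were seen, among them parent genes of pseudogenes, library markers and further called list members. Some results are not reported here.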

Additional observations from a re-analysis of the deposited data

Results flagged for a closer look

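For 7 genes the difference with the Tet2 label differed between libraries with and without the Akita allele by an interaction test in edgeR. This was in the fit without the libraries numbered 3 (n = 2 per group). In the main fit of all libraries none of them passed. With the replicate block added to the fit without the libraries numbered 3, none passed either. The interaction is the double mutant minus Akita log2 difference minus that of Tet2het and WT.

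Lower double mutant libraries carried the interaction for 4 genes. It was -3.67 for Akap12 (adjusted p = 0.0194), -2.99 for Spib (0.0194), -4.45 for Mybpc2 (0.0194) and -1.61 for H2-Aa (0.0204). Spib was at 62.0, 81.1 and 42.2 CPM in Tet2het and 44.4, 37.8 and 45.7 CPM in WT, against 10.4, 7.46 and 4.25 CPM in the double mutant. Mybpc2 was at 5.73, 6.53 and 2.32 CPM in Tet2het and 2.72, 3.09 and 0.907 CPM in WT, so its interaction adds a higher Tet2het level to a lower double mutant one. Mybpc2 lies beside Spib on the same strand, and whether their calls are separate was not tested. H2-Aa was at 247, 266 and 55.5 CPM in Tet2het and 214, 191 and 78.1 CPM in WT, with both libraries numbered 3 low.

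For Cdk18 the value was 2.22 (0.0194). Its double mutant 3 library, at 8.94 CPM, lay below Akita, but Tet2het 3 and WT 3 were lower still, at 0.918 and 1.94 CPM.

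For 2 genes the test passed through low Tet2het libraries and not through the double mutant. Fcnb, a ficolin of myeloid cells (3.89, adjusted p = 0.0194), was at 29.9, 21.5 and 0.387 CPM in Tet2het and at 374, 345 and 5.99 CPM in WT, while Akita had 440 and 316 CPM and the double mutant 307, 497 and 10.5 CPM. Eps8l1, a relative of the actin regulator EPS8 (6.55, adjusted p = 0.0204), was at 0.0474, 0 and 0.0483 CPM in Tet2het, below 3 counts in each library, and at 4.94, 4.08 and 10.3 CPM in WT, 5.74 and 4.90 CPM in Akita against 4.06, 3.13 and 0 CPM in the double mutant.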

How the results depend on the processing

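Counts of calls moved with most choices. Against 3 higher and 3 lower genes and no interaction, DESeq2 gave 125, 64 and 60, no low count filter 7, 13 and 3, and no libraries numbered 3 gave 245, 191 and 7. Upper quartile factors gave 1 lower gene, limma voom 1 higher, a mean of at least 5 CPM 1 lower, and the 2 groups alone 1 higher and 0 lower. Leaving out 1 library gave 0 to 5 higher and 0 to 6 lower genes and 0 interactions. Added after seeing the data, numbers 1 and 2 of both groups alone gave 23 higher and 21 lower, and DESeq2 without the libraries numbered 3 gave 721, 470 and 509.

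With the replicate block and all libraries 3 interactions and 9 higher and 9 lower genes were called. Spib, Bach2 and Mybpc2 were among the lower and Fcgr4 and Saa3 among the higher. None of these 5 genes was called with all libraries in the main fit. With the block and without the libraries numbered 3 60 higher and 58 lower genes and 0 interactions were called, so none of the 7 interaction calls passed there. Deviations of same-numbered libraries correlated at -0.02 (number 1) and -0.32 (number 2), and those of unlike numbers at 0.02 and 0.32. With 2 Akita libraries these values mirror each other, so they cannot decide whether libraries of 1 number share a factor. Number 3 was not covered, and WT 3, Tet2het 3 and double mutant 3 had the highest mitochondrial shares of the 11 libraries. The numbers were not treated as pairing the samples in the main fit.

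Of single genes named, 19 comparisons with an alternative reversed. Without double mutant 3 these were Fcer1a (-1.02) and Cpa3 (-0.95), which over the fits that left out 1 library reached up to 1.63 and 1.42. Without the libraries numbered 3, Itga2b was at -0.22, Fcer1a -1.02, Cpa3 -0.95, Mcpt8 -1.59 and Prss34 -1.35. Further values were Itga2b -0.23, Fcer1a -1.02 and Cpa3 -0.95 with numbers 1 and 2 alone, Itga2b -0.22, Fcer1a -1.02, Cpa3 -0.95 and Mcpt8 -1.59 with the block and without the libraries numbered 3, and Itga2b -0.21, Fcer1a -1.003, Cpa3 -0.93, Mcpt8 -1.58 and Prss34 -1.33 in DESeq2 without them; with all libraries these genes lay above 0. The cause was not tested. Of the remaining comparisons 4339 kept direction and call, 292 gained and 61 lost a call. RLE, upper quartile and DESeq2 scaling moved the median of all genes to 0.04 to 0.05 and changed the sign of no list median; voom changed that of 2 lists, basophil and interferon.

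With 2 Akita libraries, each of which carries much of the group mean, small differences were below what this design can detect. Genes near 3 counts per library have uncertain folds.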
